A study of Mus musculus with 8 samples.

Results

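The comparison is of Hepa1-6 cells given trimethylamine N-oxide (TMAO) with untreated Hepa1-6 cells, taken across all expressed genes. Its members are 4 of the 8 libraries of the series, chosen by their treatment labels: 2 control libraries and 2 libraries from cells given TMAO at 50 µM for 24 h. The other 4 libraries are 2 from cells given the cytokine TNF-α at 50 ng/ml for 24 h and 2 from cells given both agents at those doses and that time. A treatment label of the combined libraries names TMAO for both agents, whereas their titles name one of each. All groups share the same cell line, a mouse hepatoma line of C57BL/6 origin per the labels, with no genetic change named. Within a group the libraries are numbered 14 and 16, which the labels do not explain, and nothing says whether a number stands for a culture of its own. A p-value here thus reflects no more than how far these libraries spread, which may be technical variation. Messenger RNA was sequenced from whole cultures, so fewer cells that express a gene and less RNA of it per cell cannot be told apart. Of 54446 genes in the count table, 15613 were abundant enough to be tested.

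TMAO is an oxidised amine: gut bacteria make trimethylamine from dietary choline and carnitine, and flavin monooxygenases of the liver oxidise it. Of the 4 genes with the smallest p in this comparison, 3 are in the list of HIF targets used here, genes of the response to low oxygen. The lists of HIF targets and glycolysis genes used here held the same 3 of the 10 genes with the smallest p and 8 of the 40. These lists hold 68 of the 15613 genes tested, and they were chosen with earlier results of these data known. In the response to low oxygen the transcription factor HIF binds short DNA elements with the core ACGTG or GCGTG. HIF is a pair of an oxygen-regulated alpha subunit (HIF-1α or HIF-2α) and ARNT. Prolyl hydroxylases of the EGLN family use oxygen to mark the alpha subunit, and the VHL protein then directs its destruction. Known HIF targets include glucose transporters, glycolytic enzymes, the vascular growth factor VEGFA and mitochondrial proteins of mitophagy.

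The 4 libraries held 28795993 to 30488605 counts. Hepatocyte lineage markers were present: Alb stood at 1108 to 1199 TPM (a level scaled to the library and corrected for gene length), Afp, the fetal and hepatoma form, at 1461 to 1561 TPM and the transcription factor Hnf4a at 129 to 148 TPM. Ttr, Apoa1, Serpina1a and Cps1, which mature hepatocytes express strongly, were each below 1 TPM in all 4 libraries. Summed hepatocyte markers were 2967 and 3030 TPM in control and 2837 and 2890 TPM with TMAO. Cholangiocyte markers, led by Spp1, summed to 414 to 420 TPM in control and 393 to 404 TPM with TMAO, with 4 of 6 at or above 1 TPM in all 4 libraries. Macrophage markers reached that level for 2 of 6, Cd68 and Csf1r, while Adgre1 and Clec4f were at 0 in 3 of 4 libraries. No stellate or fibroblast marker of 6 and no endothelial marker of 5 reached it in all 4 libraries, and Col3a1 and Lyve1 were at 0. Des, a stellate marker, stood at 1.29 and 0.904 TPM in control 14 and 16 and at 0.156 and 0.942 TPM in TMAO 14 and 16. Control 14 stood somewhat apart from the other 3 libraries: the mean log2 CPM (CPM are counts scaled to the library size) of 29 ribosomal protein genes was 9.62 there and 9.41 to 9.44 in the others, and TNF-α 16 departed further the same way, at 10.21. The part of these marker and library differences in the results was not tested. The SD of the log2 difference between paired libraries was 0.25 in control, 0.18 with TMAO, 0.21 with both agents and 0.69 with TNF-α.

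With all 8 libraries sharing one estimate of the spread, edgeR's quasi-likelihood test called no gene at an adjusted p of 0.05 (0 of 15613, 0.0%). At an unadjusted p of 0.05 it listed 184 genes (1.18%), 119 of them lower with TMAO (0.762%) and 65 higher (0.416%), and the smallest adjusted p was 0.146, for Bnip3. DESeq2 called 4 genes in the same libraries (0.0256%) and limma-voom none. The wide TNF-α pair enters that shared spread. Without it, on 6 libraries, edgeR called 6 genes of 15331 (0.0391%), and all 6 fell with TMAO: Bnip3, Ndrg1, Egln3, Kctd11, Fam162a and Igfbp1. On the 4 control and TMAO libraries alone it called 3 of 14843 (0.0202%), namely Bnip3, Ndrg1 and Egln3. The 4 genes that DESeq2 called in the 8 libraries were Bnip3, Egln3, Ndrg1 and Kctd11, so these sets were nested and held no gene that rose. With control 14 and TNF-α 16 both left out, the 2 libraries that departed alike, 48 genes passed (0.295%), 44 lower and 4 higher.

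Most genes differed little. Among the 8990 genes with a mean of at least 10 CPM over the 8 libraries, a log2 fold change had a 95% interval of ± 0.35 at the median with 8 libraries and ± 0.16 with 6, so small differences were not detectable at this replication. In that set 2 genes had a log2 difference beyond 1, Bnip3 and the small nuclear RNA gene Rn7sk. Rn7sk stood at 1.25 and 0.655 CPM in control and 3.43 and 0.862 CPM with TMAO. Its difference of 1.16 thus rested on TMAO 14 alone, and the groups overlapped. It met the limit of 10 CPM only through libraries outside this comparison. In the same set 27 genes were lower (0.3%) and 1 was higher at an unadjusted p of 0.05 by the 8-library edgeR fit, and 17 of the 27 were in the lists of HIF targets or glycolysis described below. These lists hold 57 of the 8990 genes. The split was less one-sided in the fits with a narrower spread: at the same p, 276 genes were lower (37 of them in the lists) and 211 higher on 6 libraries, and 170 lower (33 in the lists) and 89 higher on 4. No gene of the lists was among the higher ones in any of the 3 fits.

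**Figure D1:**
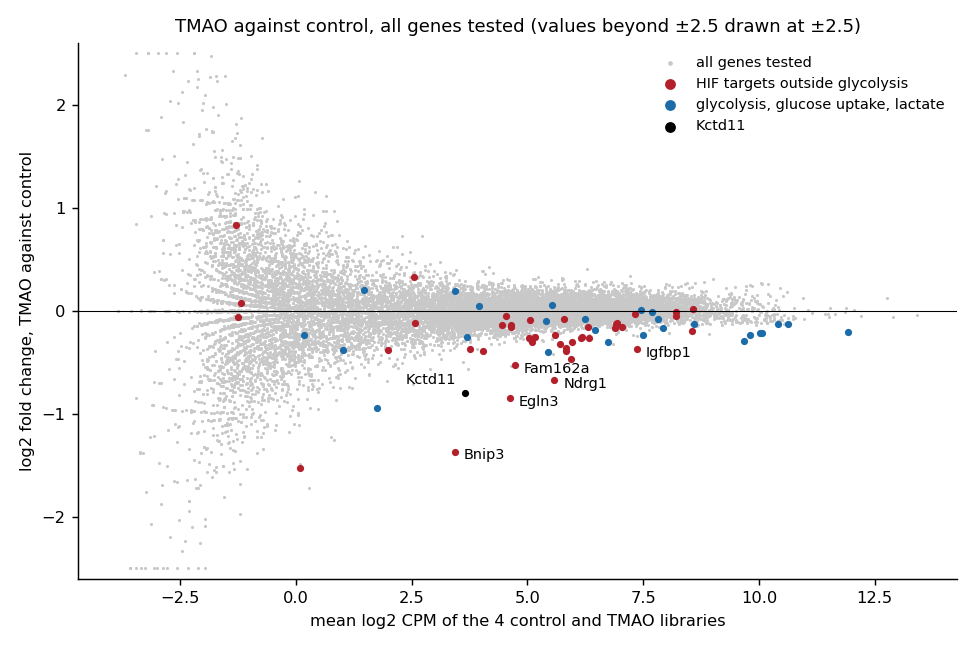
Each point is 1 of the 15613 genes tested, with its mean log2 CPM over the 4 control and TMAO libraries (x axis) and its log2 fold change with TMAO from the 8-library fit (y axis); HIF targets outside glycolysis are red, glycolysis genes blue and Kctd11 black. The labelled genes are the 6 that edgeR called without the TNF-α pair, and Bnip3, Egln3, Kctd11 and Ndrg1 lie below the band of genes of like level.

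Bnip3 (ENSMUSG00000078566.8) encodes a protein of the outer mitochondrial membrane that promotes mitophagy. It stood at 16.9 and 17.6 CPM in control 14 and 16 and at 6.59 and 6.76 CPM in TMAO 14 and 16. Both TMAO libraries were far below both controls, and the libraries within a group were close. The log2 fold change was -1.37 ± 0.12 (± SE), a 2.58-fold lower level, with an edgeR adjusted p of 7.66e-05 on 6 libraries, 0.00141 on 4 and 0.146 on 8. In the deposited table of TPM values it was 45.8 and 50.7 in control and 18.9 and 19.99 with TMAO.

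Egln3 (ENSMUSG00000035105.5), the oxygen-sensing prolyl hydroxylase PHD3 and itself a HIF target, stood at 33.3 and 32.6 CPM in control and 17.4 and 19.3 CPM with TMAO. The groups did not overlap. Its log2 fold change was -0.85 ± 0.11 on 8 libraries, where edgeR did not call it, and its edgeR adjusted p on 6 libraries was 0.000752. Ndrg1 (ENSMUSG00000005125.13), a stress-response protein long used as a marker of hypoxia, stood at 61.5 and 59.4 CPM in control and 38.2 and 37.6 CPM with TMAO. Again the TMAO libraries were lower than both controls and nearly equal to each other. The log2 fold change was -0.67 ± 0.09 on 8 libraries, with an edgeR adjusted p of 0.64 there and 0.00041 on 6 libraries.

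Kctd11 (ENSMUSG00000046731.4) encodes an adaptor of a CUL3 ubiquitin ligase that restrains Hedgehog signalling, and it was in none of the gene lists used here. It stood at 15.6 and 17.3 CPM in control and 9.07 and 9.88 CPM with TMAO, without overlap. Its log2 fold change was -0.79 ± 0.11 on 8 libraries, where edgeR did not call it, and its edgeR adjusted p on 6 libraries was 0.0110. On the 4 libraries alone its adjusted p by edgeR was 0.076, so that smaller fit did not call it.

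Fam162a, a mitochondrial protein also named HGTD-P that is induced by HIF, stood at 32.4 and 30.9 CPM in control and 22.1 and 21.8 CPM with TMAO. The log2 fold change was -0.53 ± 0.24 with 8 libraries and -0.53 ± 0.08 with 6, where the edgeR adjusted p was 0.027. In the deposited TPM the 4 values were 91.0 and 65.9 in control and 65.7 and 49.3 with TMAO, so on that scale control 16 and TMAO 14 nearly met. Igfbp1, the secreted insulin-like growth factor binding protein that liver cells make under fasting and hypoxia, stood at 195 and 180 CPM in control and 145 and 146 CPM with TMAO. It had the smallest difference of the 6 genes, -0.37 ± 0.16 with 8 libraries and -0.38 ± 0.06 with 6 (edgeR adjusted p 0.0375 on 6). Per gene length, Igfbp1 was the most abundant of the 6, at a mean of 246.5 TPM in control, and Kctd11 the least, at 10.7 TPM.

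Over the 27 other settings of filter, scaling, test, libraries and input that were tried, all 6 genes were lower with TMAO in all 27. Bnip3 and Egln3 passed the adjusted test in 14 of them, Ndrg1 in 13, Kctd11 in 10, and Fam162a and Igfbp1 in 7 each. The 27 settings include the fit without the TNF-α pair, by which the 6 genes were picked. All of them reuse the same control and TMAO libraries, so the shared sign is no independent support. With all 8 libraries only DESeq2 and the fit without a low-count filter called any of the 6. Every other pass came from a fit that left out 1 or both TNF-α libraries. Some of the 27 settings were added after seeing the data: DESeq2 on 4 libraries, and fits without the TNF-α pair and 1 further library. Bnip3 and Egln3 passed in all of those. The log2 fold change of Bnip3 ranged from -1.4 to -1.27 and that of Igfbp1 from -0.43 to -0.31.

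**Figure D2:**
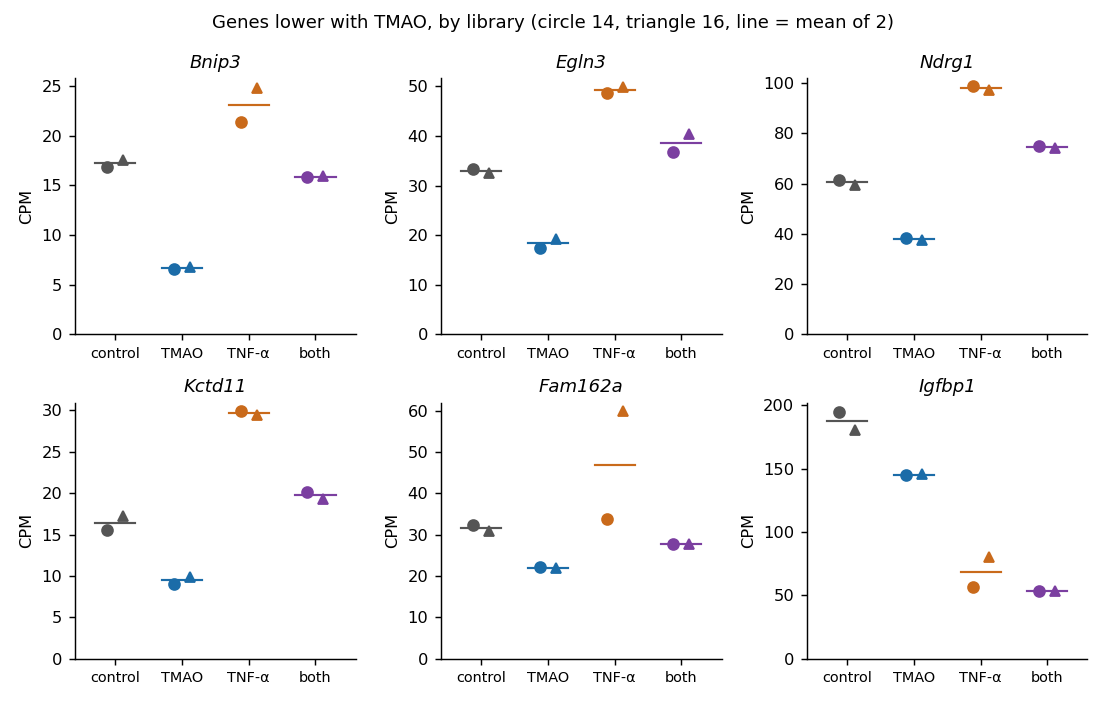
CPM of the 6 genes in each of the 8 libraries, by group, with circles for libraries numbered 14, triangles for 16 and a line at the mean of 2; axes start at 0. In each panel both TMAO libraries lie below both control libraries, and both libraries with TMAO and TNF-α lie below both with TNF-α alone.

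The start regions of these genes are shown because the core letters of the HIF element can be read in them. The sequences are the 250 bases before the annotated start on the gene's strand, 5′ to 3′, from RefSeq on build GRCm38.p6. Capitals mark ACGTG or GCGTG, or their reverse complements CACGT and CACGC where the letters lie on the other strand. The Bnip3 window (chr7:138909507-138909756, minus strand) held 5 matches, and 2 of them overlap as the palindrome that starts 108 bases before the start. The Fam162a window (chr16:36071562-36071811, minus strand) held 6. The Egln3 window (chr12:54203875-54204124, minus strand) and the Igfbp1 window (chr11:7197537-7197786, plus strand) held 1 each.
Bnip3: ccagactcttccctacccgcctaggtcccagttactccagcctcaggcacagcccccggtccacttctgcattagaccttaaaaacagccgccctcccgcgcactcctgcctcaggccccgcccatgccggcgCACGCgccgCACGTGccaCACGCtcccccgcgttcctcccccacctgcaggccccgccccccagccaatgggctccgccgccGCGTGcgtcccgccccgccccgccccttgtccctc
Fam162a: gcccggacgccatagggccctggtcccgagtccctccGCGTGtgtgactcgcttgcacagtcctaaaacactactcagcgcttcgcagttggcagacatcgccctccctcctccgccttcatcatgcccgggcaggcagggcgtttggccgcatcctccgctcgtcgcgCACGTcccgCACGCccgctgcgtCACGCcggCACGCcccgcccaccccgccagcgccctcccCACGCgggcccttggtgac
Egln3: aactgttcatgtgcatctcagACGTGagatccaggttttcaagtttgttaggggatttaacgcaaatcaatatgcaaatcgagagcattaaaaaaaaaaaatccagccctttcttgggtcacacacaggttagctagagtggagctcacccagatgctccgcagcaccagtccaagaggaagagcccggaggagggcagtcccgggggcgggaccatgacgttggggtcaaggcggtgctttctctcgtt
Igfbp1: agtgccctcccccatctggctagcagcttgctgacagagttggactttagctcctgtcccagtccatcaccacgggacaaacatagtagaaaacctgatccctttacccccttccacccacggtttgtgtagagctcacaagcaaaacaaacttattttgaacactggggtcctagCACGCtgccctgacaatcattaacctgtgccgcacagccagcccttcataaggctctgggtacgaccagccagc
The Kctd11 window held none of these letters, and no window was read for Ndrg1. Either core was found in 25 of 32 windows of HIF targets outside glycolysis (78.1%) and in 17 of 25 of the glycolysis list (68.0%). It was found in 55.0% of the 10628 windows of genes tested and in 38.6% of all 27025 windows, so such a match is common and is a description only, not a bound site.

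The list of HIF targets outside glycolysis had 48 genes, of which 42 could be tested. The others (Adm, Car12, Ndufa4l2, Stc2, Lox and Pdk3) had at most 8 counts in any library. Of the 42, 38 had a log2 fold change below 0, beside 49.4% of all genes tested. In 29 of them both TMAO libraries were below both controls and in 2 both were above, where 15.9% of all genes tested were lower and 17.2% higher in this way. The median log2 fold change was -0.21, with quartiles of -0.37 and -0.10, beside a median of 0.00 over all genes tested. At an unadjusted p of 0.05 the 8-library edgeR fit listed 16 of the 42 as lower, beside 0.762% of all genes tested, and none as higher. On 6 libraries 5 of the 42 passed the adjusted test, beside 0.0391% of all genes tested there. The median was -0.23 without control 14 and -0.24 without control 16. The mean log2 CPM of the list was 5.12 and 5.13 in the controls and 4.90 and 4.84 with TMAO, 2 pairs that did not overlap.

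Several of these genes act on mitochondria and cell growth. Bnip3l, the close relative of Bnip3 in mitophagy, stood at 74.8 and 82.3 CPM in control and 65.2 and 65.9 CPM with TMAO, a log2 difference of -0.26 ± 0.10. Ddit4, the inhibitor of mTORC1 also called REDD1, stood at 74.8 and 68.6 CPM in control and 55.8 and 48.1 CPM with TMAO (-0.47 ± 0.16). In both genes the TMAO libraries were the lower pair, and neither passed the adjusted test on 6 libraries (edgeR adjusted p 0.426 and 0.0514). Ccng2, an atypical cyclin tied to cell cycle arrest, and Mxi1, an antagonist of MYC, differed by -0.39 ± 0.12 and -0.37 ± 0.15, also without overlap. Ankrd37 had the most negative fold change of the list, -1.52 ± 0.43, at a low level of 1.56 and 1.79 CPM in control and 0.596 and 0.563 CPM with TMAO.

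Other members of the list act outside the cell, in protein folding or in metabolism. Vegfa, the vascular growth factor, stood at 64.1 and 67.0 CPM in control and 50.0 and 49.7 CPM with TMAO, a log2 difference of -0.39 ± 0.11 (edgeR adjusted p on 6 libraries 0.074). P4ha2 and P4ha1, the catalytic subunits of collagen prolyl hydroxylase, differed by -0.36 ± 0.10 and -0.27 ± 0.10. P4ha2 stood at 65.1 and 65.0 CPM in control and 49.8 and 51.3 CPM with TMAO, and its edgeR adjusted p on 6 libraries was 0.0514. Nrn1, neuritin, and Ero1l, the oxidase that drives disulfide formation in the endoplasmic reticulum, differed by -0.32 ± 0.10 and -0.30 ± 0.12. Gys1, glycogen synthase, differed by -0.23 ± 0.09, Gbe1, the glycogen branching enzyme, by -0.38 ± 0.18 and Ppp1r3c, a glycogen-targeting subunit of protein phosphatase 1, by -0.26 ± 0.10. Ak4, the mitochondrial adenylate kinase, differed by -0.30 ± 0.09. All of these had both TMAO libraries below both controls, and none passed the adjusted test on 6 libraries.

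Not all HIF targets were lower. Fut11 and Bhlhe41 were the 2 members with both TMAO libraries above both controls, Fut11 at 4.83 and 5.48 CPM in control and 6.38 and 6.56 CPM with TMAO, and Bhlhe41 below 1 CPM throughout. Hmox1, heme oxygenase, which HIF and NRF2 both regulate, was lower without overlap, but by little. It stood at 34.6 and 33.5 CPM in control and 32.6 and 31.3 CPM with TMAO. Its difference was -0.09 ± 0.12, with an interval of -0.37 to 0.18 that lay on both sides of no change.

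**Figure D3:**
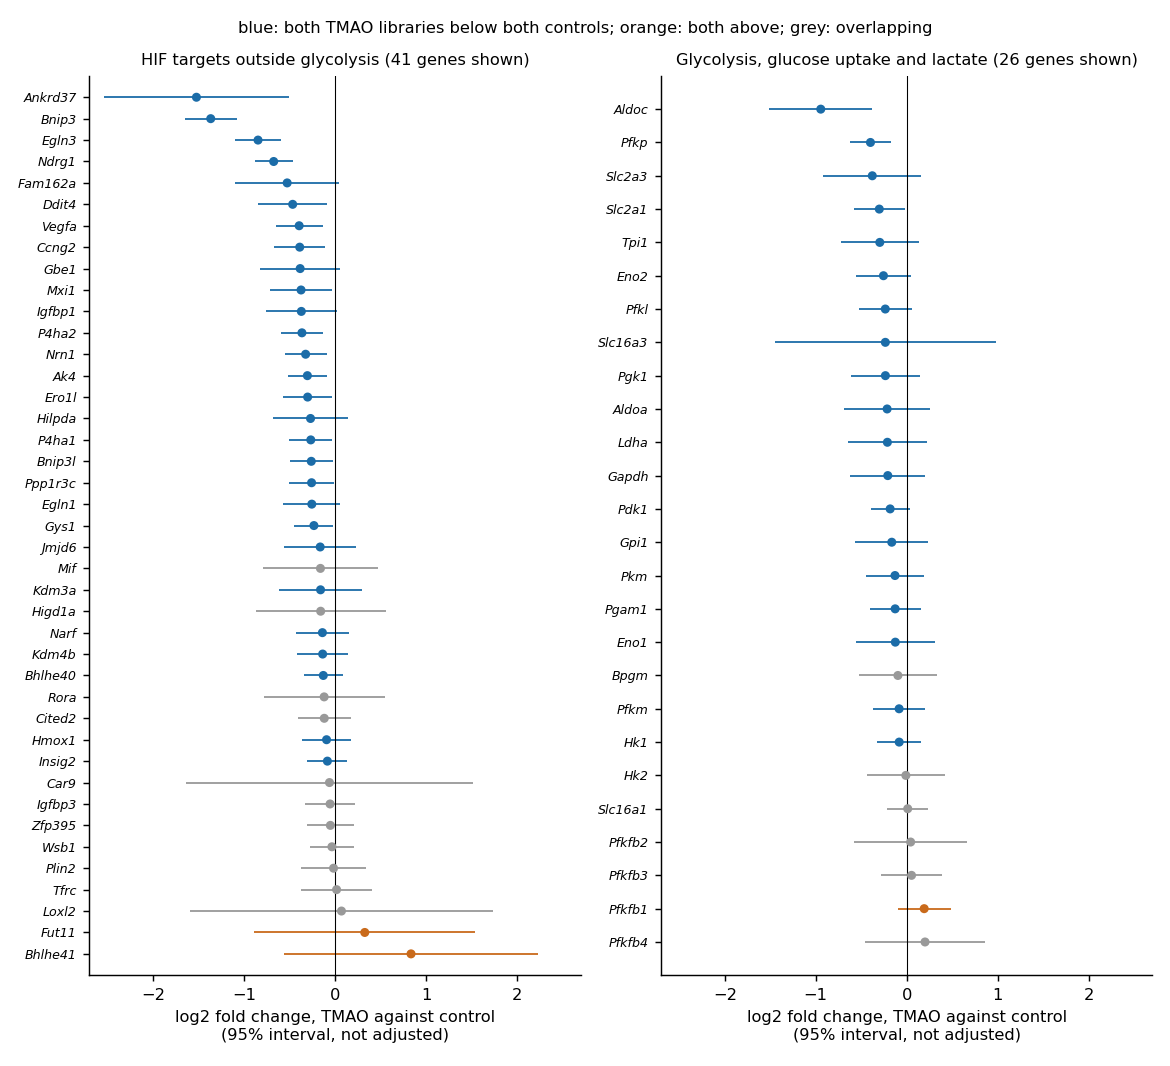
Log2 fold change with TMAO (x axis, point) and its unadjusted 95% interval from the 8-library edgeR fit (line) for 41 of the 42 HIF targets outside glycolysis and the 26 genes of the glycolysis list, ordered by value; blue marks genes with both TMAO libraries below both controls, orange both above, grey overlap. Blue covers most genes of both lists, 19 of 26 in the glycolysis list, and most values lie between 0 and -0.4.

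The list of glycolysis, glucose uptake and lactate genes had 27 members, of which 26 were tested and Ldhb, with at most 4 counts, was not. Of the 26, 19 had both TMAO libraries below both controls and 1, Pfkfb1, both above, beside 15.9% and 17.2% of all genes tested. The median log2 fold change was -0.17, and it was -0.12 without control 14 and -0.19 without control 16. No member passed the adjusted test on 8, 6 or 4 libraries, and 3 were listed as lower at an unadjusted p of 0.05 on 8, beside 0.762% of all genes. Glucose enters through Slc2a1 (GLUT1), which stood at 125.7 and 110.7 CPM in control and 97.9 and 93.9 CPM with TMAO (-0.30 ± 0.12). Of the phosphofructokinases, which commit sugar to glycolysis, Pfkp stood at 49.5 and 50.3 CPM in control and 37.3 and 38.4 CPM with TMAO (-0.40 ± 0.10). Aldoc, an aldolase at a low level here, stood at 4.77 and 4.34 CPM in control and 2.17 and 2.55 CPM with TMAO (-0.95 ± 0.24). These 3 genes had the smallest p of the list, and their groups did not overlap.

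Several abundant enzymes of glycolysis were lower in value, by log2 differences of -0.30 to -0.21. Tpi1, triose phosphate isomerase, stood at 952 and 854 CPM in control and 732 and 738 CPM with TMAO (-0.30 ± 0.18). Pgk1, phosphoglycerate kinase, stood at 991 and 953 CPM in control and 832 and 820 CPM with TMAO (-0.23 ± 0.16). Gapdh stood at 4307 and 4010 CPM in control and 3522 and 3675 CPM with TMAO (-0.21 ± 0.17), and Ldha, lactate dehydrogenase A, differed by -0.21 ± 0.18. For each of these 4 genes the TMAO libraries were the lower pair, and control 14 was the highest of the 4 libraries. Without control 14 the differences of Gapdh and Ldha were both -0.16. Gapdh, Ldha and Pgk1 have processed pseudogenes that could take a share of their reads. Pdk1, the kinase that keeps pyruvate from the mitochondria, stood at 94.6 and 93.7 CPM in control and 82.4 and 83.4 CPM with TMAO (-0.18 ± 0.09). Hk2, hexokinase 2, and Slc16a1, the lactate carrier MCT1, showed no such offset: Hk2 stood at 200.6 and 215 CPM in control and 207 and 206 CPM with TMAO, and the log2 difference of Slc16a1 was 0.01 ± 0.09, with an interval of -0.21 to 0.23.

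With control 14 and TNF-α 16 left out, 23 of the 48 genes that passed were in these lists. Tpi1, Pgk1, Gapdh, Ldha, Vegfa, Slc2a1, Pfkp, Pfkl and Bnip3l fell in that fit. The genes that rose in it were Gm13453, Ccdc86, Rpl26 and Slc7a5, by log2 differences of 0.63, 0.24, 0.21 and 0.17. The fit rests on control 16 alone for the control level and assumes that this library varies like the paired groups. The lists hold 68 of the 15613 genes tested in the 8-library fit. Of the 6 libraries without the TNF-α pair, leaving out control 16 gave 2948 calls and leaving out control 14 gave 50.

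The sensors and subunits of the pathway had values on both sides of 0. Of 9 measured genes of the list of HIF subunits and oxygen-sensing hydroxylases, 3 had both TMAO libraries below both controls (Egln3, Egln1 and Vhl) and 3 above (Hif1a, Arnt and Hif1an), beside 15.9% and 17.2% of all genes tested, and the median difference was 0.00. Hif1a, the messenger RNA of HIF-1α, stood at 101 and 110 CPM in control and 111 and 111 CPM with TMAO, a log2 difference of 0.07 ± 0.15. Epas1, which encodes HIF-2α, stood at 32.6 and 40.2 CPM in control and 39.8 and 41.6 CPM with TMAO (0.16 ± 0.28), and the groups overlapped. Arnt differed by 0.08 ± 0.16. Egln3 and Egln1 are counted in the target list as well. Egln1, the main oxygen sensor PHD2, stood at 81.9 and 76.3 CPM in control and 66.1 and 66.4 CPM with TMAO (-0.26 ± 0.13). HIF-1α is controlled chiefly at the protein level, which was not measured.

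The other gene lists with at least 8 measured genes had medians closer to 0. The highest share lower without overlap among them was 6 of 12, in the collagen list, beside 15.9% of all genes tested. Of 34 lists described, 26 besides HIF targets and glycolysis had at least 8 measured genes, and their medians ran from -0.10 (collagen prolyl and lysyl modifying enzymes) to 0.03 (flavin monooxygenases and choline metabolism). Over these 26 lists the 8-library edgeR fit listed 4 members as lower and none as higher at an unadjusted p of 0.05, namely Egln3, P4ha1, P4ha2 and Abcb11, the bile salt export pump, which was under 1 CPM, and the first 3 are also HIF targets. NF-κB targets, the inflammatory genes that TNF-α induces, had a median of -0.07, with 9 of 26 lower and 2 higher without overlap (15.9% and 17.2% over all genes tested) and none listed at that p. Genes of the flavin monooxygenases and choline handling, the enzymes nearest to TMAO itself, had 3 of 16 lower and 3 higher without overlap, shares near those of all genes, and their median was -0.01 without control 14. The PERK-ATF4 list, a stress pathway of the endoplasmic reticulum, had 2 of 22 lower and 4 higher and a median of -0.02, which was 0.05 without control 14. The cytosolic ribosomal proteins and the nuclear genes of oxidative phosphorylation had medians of -0.09 and -0.07, and all 29 ribosomal protein genes had a negative value. Without control 14 these medians were 0.01 and 0.01, and that of the HIF targets was -0.23. All of these values then share control 16 as their only control library, so they do not vary independently.

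**Figure D4:**
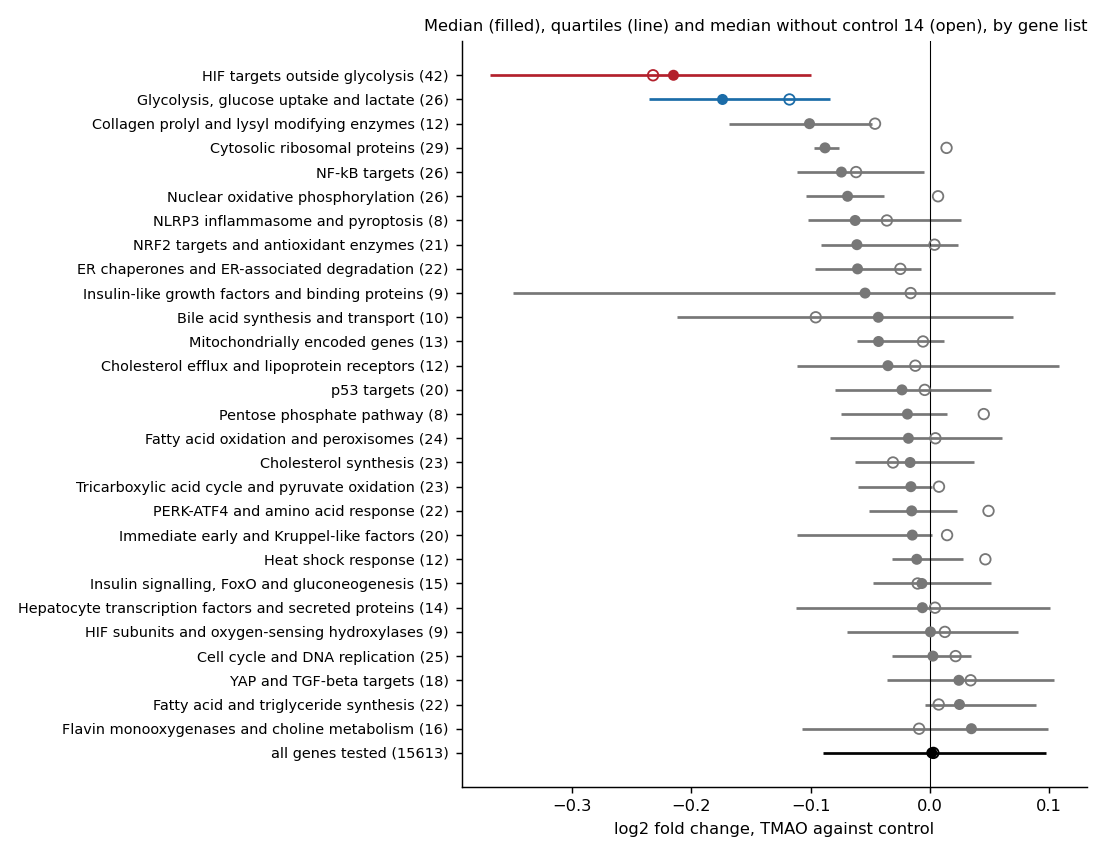
Median log2 fold change with TMAO (filled point), its quartiles (line) and the median without control 14 (open point) for the 28 gene lists with at least 8 measured genes, with the number measured in brackets and all genes tested at the foot. HIF targets outside glycolysis and glycolysis have the lowest medians, -0.21 and -0.17, and keep values of -0.23 and -0.12 without control 14.

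All genes, in a list or not, were ranked by p among those with a mean of at least 1 CPM in a group and no overlap. On the lower side the 12 leading genes were Bnip3, Egln3, Ndrg1, Kctd11, Smtnl2, Pfkp, Prdm1, Selenbp1, Unc13a, Aldoc, Rcor2 and Tln2. Prdm1, the transcriptional repressor BLIMP1, stood at 7.27 and 7.27 CPM in control and 4.98 and 3.91 CPM with TMAO (-0.71 ± 0.18). Unc13a, a synaptic vesicle priming protein, stood at 16.4 and 15.3 CPM in control and 10.9 and 10.6 CPM with TMAO (-0.56 ± 0.14). Rcor2, a corepressor that partners with the demethylase LSD1, differed by -0.57 ± 0.14. Smtnl2, Selenbp1 and Tln2 differed by -1.22 ± 0.25, -1.72 ± 0.43 and -1.10 ± 0.29, all from control levels of 1.25 to 2.55 CPM. None of these 6 passed the adjusted test on 6 libraries, where their edgeR adjusted p ran from 0.111 (Unc13a) to 0.84 (Tln2). St3gal1, a sialyltransferase, and Appl2, an endosomal adaptor, were chosen after their values were seen because they passed with control 14 and TNF-α 16 left out. St3gal1 stood at 125 and 131 CPM in control and 103.5 and 102 CPM with TMAO, and Appl2 at 28.7 and 31.0 CPM in control and 21.9 and 19.4 CPM with TMAO.

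On the higher side no gene passed on 8, 6 or 4 libraries, and the leading genes were of low level. Runx1, a transcription factor of blood formation, had the smallest p, at 3.35 and 3.45 CPM in control and 4.91 and 5.54 CPM with TMAO (0.62 ± 0.15, edgeR adjusted p on 6 libraries 0.483). Jag2, a Notch ligand, stood at 0.811 and 1.34 CPM in control and 2.17 and 2.06 CPM with TMAO. Nrbf2, a subunit of the autophagy lipid kinase complex, stood at 3.45 and 3.10 CPM in control and 4.77 and 4.24 CPM with TMAO. The rest of the 12 were Zfp952, Zmat1, Crnde, Snord83b, Plcxd1, Plekha4, Arvcf, Ankrd39 and Muc6, with log2 differences of 0.38 (Ankrd39) to 1.02 (Plcxd1) and an edgeR adjusted p on 6 libraries of 0.84 for each. None of the 12 reached 10 CPM in any control or TMAO library.

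The combined and TNF-α libraries give the TMAO difference again, in 4 libraries that do not enter the TMAO or control levels, although in the 8-library fit they share the estimate of the spread. There edgeR called no gene on 8 libraries (0 of 15613, 0.0%), DESeq2 and limma-voom called none, and 549 genes (3.52%) had an unadjusted p under 0.05 by edgeR. Bnip3 stood at 21.3 and 24.9 CPM with TNF-α and at 15.8 and 15.9 CPM with both agents, a log2 difference of -0.54 ± 0.12. Egln3 stood at 48.6 and 50.0 CPM with TNF-α and 36.8 and 40.4 CPM with both (-0.35 ± 0.11). Ndrg1 stood at 98.7 and 97.3 CPM with TNF-α and 74.8 and 74.2 CPM with both (-0.40 ± 0.09). Kctd11 stood at 29.9 and 29.4 CPM with TNF-α and 20.2 and 19.3 CPM with both (-0.59 ± 0.11). In these 4 genes both combined libraries lay below both TNF-α libraries, and without TNF-α 16 the differences were -0.43 (Bnip3), -0.33 (Egln3), -0.41 (Ndrg1) and -0.60 (Kctd11). Fam162a and Igfbp1 were also lower without overlap, but TNF-α 16 stood high in both: Fam162a at 33.8 and 60.0 CPM and Igfbp1 at 56.5 and 80.6 CPM in TNF-α 14 and 16. Their differences of -0.75 and -0.35 became -0.28 and -0.08 without TNF-α 16. In the 8-library edgeR fit of this comparison none of the 6 had an adjusted p below 0.569. Some fits that kept a single TNF-α library did call genes, members of these 6 among them. Such fits assume that this library varies like the paired groups.

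Of the 42 HIF targets outside glycolysis, 22 had both combined libraries below both TNF-α libraries and 1 above, where 17.3% of all genes tested were lower and 17.1% higher in this way. The median difference was -0.16, and 33 of 42 values were below 0, where 51.4% of all genes tested were. Without TNF-α 16 the median was -0.09, and 41 of 42 values were below 0, beside 50.6% of all genes. All of these values then share TNF-α 14 as their 1 reference library, so they do not vary independently. In that fit 18 of 20 p53 targets and 21 of 26 NF-κB targets were also below 0, against 6 of 23 cholesterol synthesis genes. Of the 26 glycolysis genes 14 were lower without overlap and 1 higher, with a median of -0.19 that became -0.07 without TNF-α 16. Such values were not particular to these lists. Of 26 NF-κB targets 13 were lower without overlap and 2 higher, with a median of -0.20. Cytosolic ribosomal proteins and nuclear oxidative phosphorylation had medians of -0.48 and -0.41, which became 0.01 and -0.01 without TNF-α 16. In that fit collagen modifying enzymes and p53 targets had -0.08 and -0.07, and fatty acid and triglyceride synthesis 0.03. The mean log2 CPM of the HIF target list was 5.25 and 5.28 with TNF-α and 5.13 and 5.13 with both agents.

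Whether the TMAO difference itself differed with TNF-α was tested as an interaction, and edgeR called no gene (0 of 15613, 0.0%; 184 at an unadjusted p of 0.05), nor did DESeq2 or limma-voom. Bnip3 had the interaction value of 0.82 ± 0.17, an unadjusted p of 0.00168 and an adjusted p of 0.953 by edgeR, its difference being -1.37 without TNF-α and -0.54 with it. Bnip3 was the 1 gene called for the interaction with control 14 and TNF-α 16 left out (edgeR adjusted p 0.0022), a fit in which control and TNF-α have 1 library each and are assumed to vary like the other groups. Leaving out 1 library at a time gave 0 calls for the interaction, except 5788 without TNF-α 14. For Vegfa the difference was -0.39 without TNF-α and 0.00 with it, where 61.0 and 53.9 CPM with TNF-α overlapped 54.3 and 60.8 CPM with both (interaction 0.40 ± 0.16, adjusted p 0.953 by edgeR). For Kctd11 the interaction was 0.21 ± 0.16.

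**Figure D5:**
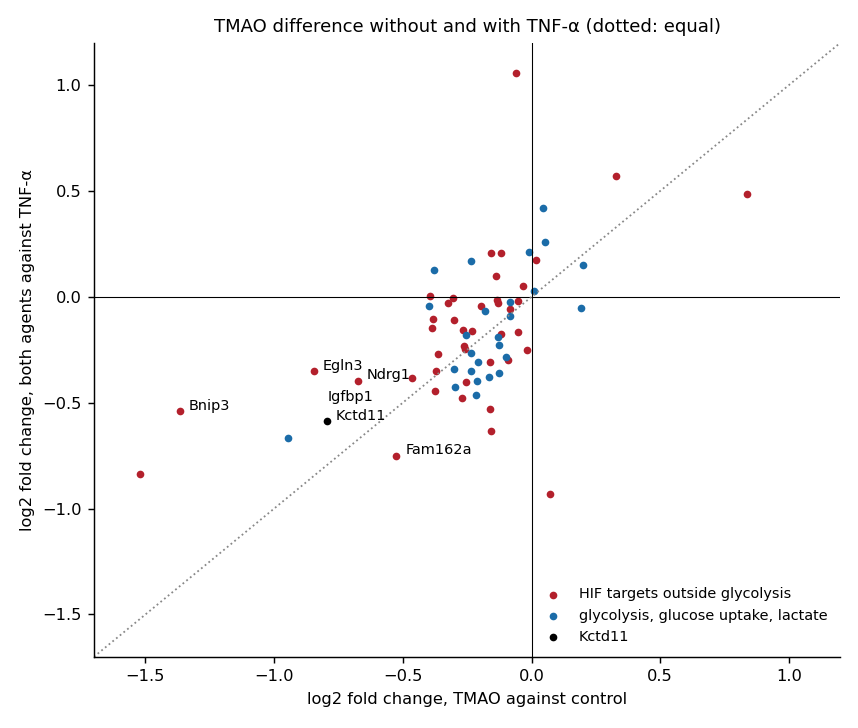
Log2 fold change with TMAO against control (x axis) and with both agents against TNF-α alone (y axis) from the 8-library fit, for 42 HIF targets outside glycolysis (red), 26 glycolysis genes (blue) and Kctd11 (black); the dotted line marks equal values and the axes share no library. Bnip3 and Egln3 lie above the line, with -1.37 and -0.85 on the x axis against -0.54 and -0.35 on the y axis, and Fam162a lies below it, though its y value is -0.28 without TNF-α 16.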

How the data were processed

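Hepa1-6 libraries (4 groups of 2) were grouped by their titles. The authors deposited whole-number counts per Ensembl gene and a separate table of TPM per symbol. The build is mm9 per the submitters' processing notes. The aligner, counting settings, annotation release and strand were each not given in the sources used here, so reads of a gene and an antisense or near-identical partner cannot be told apart. The identifiers of 53229 genes matched GENCODE M21 with their version, and symbols came from it.

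The test used edgeR 4.0.16 (R 4.3.3): filterByExpr (15613 genes kept), TMM scaling, 4 group means over all 8 libraries, robust quasi-likelihood fit, Benjamini-Hochberg adjustment over all genes at 0.05. Fits on 6 libraries (without TNF-α, 15331 genes) and 4 libraries (14843 genes) are given beside it, because the TNF-α pair lay far apart. CPM uses TMM-scaled totals without a pseudocount. DESeq2 1.42.0, limma 3.58.1 (voom, and log2(TPM + 1) or + 0.1 on the deposited TPM with a filter of 1 TPM), other scalings and filters, and left-out libraries were alternatives. The procedures were tested on simulated counts. Total counts of 24736746 to 30488605 make 3 counts worth 0.0984 to 0.121 CPM, a limit for counting error alone.

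Named genes were, in each direction, the 12 with the smallest p among genes with a mean of 1 CPM in a group and no overlap (unnamed predicted genes left out), since none passed, and the 4 members with the smallest p of a list. Further members are given as values, and 1 list member is not reported here. The comparison, lists and rules were chosen with earlier results of these data known. Where a symbol had 2 gene rows, the row with more counts was used. Promoter windows came from RefSeq sequences on GRCm38.p6, matched by symbol.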

Additional observations from a re-analysis of the deposited data

How the results depend on the processing

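For TMAO against control, 0 genes passed in the 8-library edgeR fit and also with limma-voom, other scaling, a filter of 1 CPM or the deposited TPM. The count was 4 with DESeq2, 2 without a low-count filter, 3 on the control and TMAO libraries, 6 without the TNF-α pair and 48 without control 14 and TNF-α 16. Leaving out 1 library at a time gave 0 to 9, the 9 without either TNF-α library. Of settings added after seeing the data, DESeq2 on 4 libraries gave 7, and leaving out 1 library at a time beside the TNF-α pair gave 3 to 2948, the 2948 without control 16 and 50 without control 14. The cause was not tested.

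For both agents against TNF-α, 12 genes passed without control 14 and TNF-α 16, and 2 and 1 on log2 TPM with a pseudocount of 1 and 0.1. Leaving out 1 library gave 0 to 8068, the 8068 without TNF-α 14, where TNF-α 16 stands alone. For the interaction 1 gene passed without control 14 and TNF-α 16, and 0 to 5788 with 1 library left out, the 5788 again without TNF-α 14. Nothing says what the numbers 14 and 16 share. Deviations from the group means correlated at 0.00487 between control and TMAO libraries, -0.0825 between TNF-α and combined libraries and -0.636 between control and TNF-α libraries, so no pairing was used. With the replicate number as a block, 0 genes passed in each of the 3 comparisons. The smallest adjusted p for TMAO against control was then 0.622.

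Signs near 0 were not stable. Hk2 turned to 0.0341 and 0.0345 on TPM with a pseudocount of 1 and 0.1. With 1 library left out, Hk2 ran from -0.0656 (without control 14) to 0.0413 (without control 16), Slc16a1 from -0.021 (without control 16) to 0.0373 (without control 14), and Rn7sk from -0.155 (without TMAO 14) to 1.84 (without TMAO 16). For the median gene with at least 10 CPM, a log2 difference within 0.35 in the 8-library fit, 0.16 in the 6-library fit or 0.18 in the 4-library fit, could not be told from 0.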
